A study of Homo sapiens with 12 samples.

Results

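The 40 genes described here are named long noncoding RNAs, among them EWSAT1 and its chromosome 15 neighbour DRAIC, the snoRNA host genes GAS5 and ZFAS1 with several SNHG genes, miRNA host genes such as MIR205HG, and the antisense genes of SOCS2, RARA and FOXC2. They were chosen by name from 62702 genes with values, and all 40 were present in the table under an Ensembl ID. EWSAT1 was put on the list because it was the gene called for the I-tail deletion in these same libraries, and SOCS2-AS1, RARA-AS1 and FOXC2-AS1 because they lie beside genes raised by prolactin in them. Their values in those comparisons are therefore descriptions.

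The cells were MCF10AT, a Ras-transformed line derived from the human breast epithelial line MCF10A. All 4 groups carried the long and the intermediate human prolactin receptor (hPRLrL/hPRLrI). In the deleted groups the I-tail, the end of the intermediate receptor, was removed, and in the intact groups it was present. All cells were serum-starved for 24 h; deleted PRL and intact PRL cells were then exposed for 2 h to 250 ng/ml prolactin (PRL), and deleted untreated and intact untreated cells were not. Each group had 3 libraries, described by the labels as biological replicates. The sources used here do not give how the receptors were introduced or whether each receptor pair was 1 clone, so the deletion and any other difference between the 2 cell populations cannot be told apart. A gene count covers the whole receptor gene and does not check the deletion.

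Long noncoding RNAs are transcripts without a long open reading frame. Some act where they are made or as parts of nuclear bodies, some bind proteins or miRNAs in the cytoplasm, and some serve mainly as carriers of small RNAs that are cut from their introns or exons. Prolactin acts through its receptor and the kinase JAK2 on the transcription factor STAT5, which raises genes such as SOCS2, a feedback inhibitor of cytokine receptors.

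Libraries held 36120808 to 57324865 counts, and values are in CPM, counts per 1e6 counts of the library, scaled by the trimmed mean of M-values. Library titles carry a running number, and titles 1 to 4, 5 to 8 and 9 to 12 each hold 1 library of every group; these runs are the replicates 1, 2 and 3 below, and the labels do not say what a run is. Titles 1 to 4 had 24477 to 25200 genes with a count and the other libraries 19073 to 23895, and the mitochondrial share was 9.93% to 14.6%. Of the 14 mammary epithelial markers, 13 averaged over 1 CPM. Of the fibroblast markers 4 of 8 averaged over 1 CPM, COL1A1 at 147 CPM and DCN at 319 CPM among them. The others, COL1A2, LUM, PDGFRA and THY1, averaged 0.22, 0.0563, 0.0678 and 0.426 CPM. The summed fibroblast list ranged over 435 to 618 CPM in deleted and 424 to 512 CPM in intact libraries. Of the leukocyte markers 2 of 10 averaged over 1 CPM, CSF1R at 34.6 CPM and CD14 at 18.4 CPM, while PTPRC, a marker of all leukocytes, reached at most 0.0227 CPM. The summed leukocyte list ranged over 53.3 to 66.0 CPM in deleted PRL, 38.95 to 54.7 CPM in deleted untreated, 56.9 to 64.2 CPM in intact PRL and 41.5 to 47.0 CPM in intact untreated libraries, so it was higher with PRL without overlap in intact cells. Of the endothelial markers 1 of 7 averaged over 1 CPM; the part of these lists in any result was not tested. The summed mammary epithelial markers ranged over 5023 to 18467 CPM in deleted libraries and 4352 to 16152 CPM in intact libraries.

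Of the 40 genes, 37 had enough counts to be tested. MEG3, an imprinted noncoding RNA of chromosome 14, had 0 counts in all 12 libraries, which allows up to 3 counts in a library or 0.052 to 0.0896 CPM. MIR17HG, the host gene of the miR-17 to miR-92 cluster, had 20 counts in all and at most 9 in 1 library. UCA1, an RNA first described in bladder cancer, had 14 counts in all and at most 8 in 1 library, 13 of them in the deleted PRL group. On average 35 members exceeded 1 CPM and 18 exceeded 10 CPM.

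Levels between genes were set per length, as CPM per kb of merged GENCODE 29 exons. NORAD, a cytoplasmic RNA induced by DNA damage, had the highest mean at 34.3 CPM per kb over 12 libraries, with a range of 21.96 to 44.0. SNHG8 followed at 29.1 CPM per kb (22.1 to 36.6) and SNHG7 at 28.3 CPM per kb (24.1 to 32.0), so these neighbours in the order overlapped. DANCR, MIR31HG, SNHG6, MIR205HG and GAS5 came next, between 21.97 and 15.6 CPM per kb. EWSAT1 stood at place 30 of 40, with group means of 0.988 CPM per kb in deleted PRL cells, 1.03 in deleted untreated cells, 0.12 in intact PRL cells and 0.121 in intact untreated cells. With the longest transcript as the length, DANCR came first at 55.5 CPM per kb and NORAD stood at place 5, and EWSAT1 moved to place 29.

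**Figure D1:**
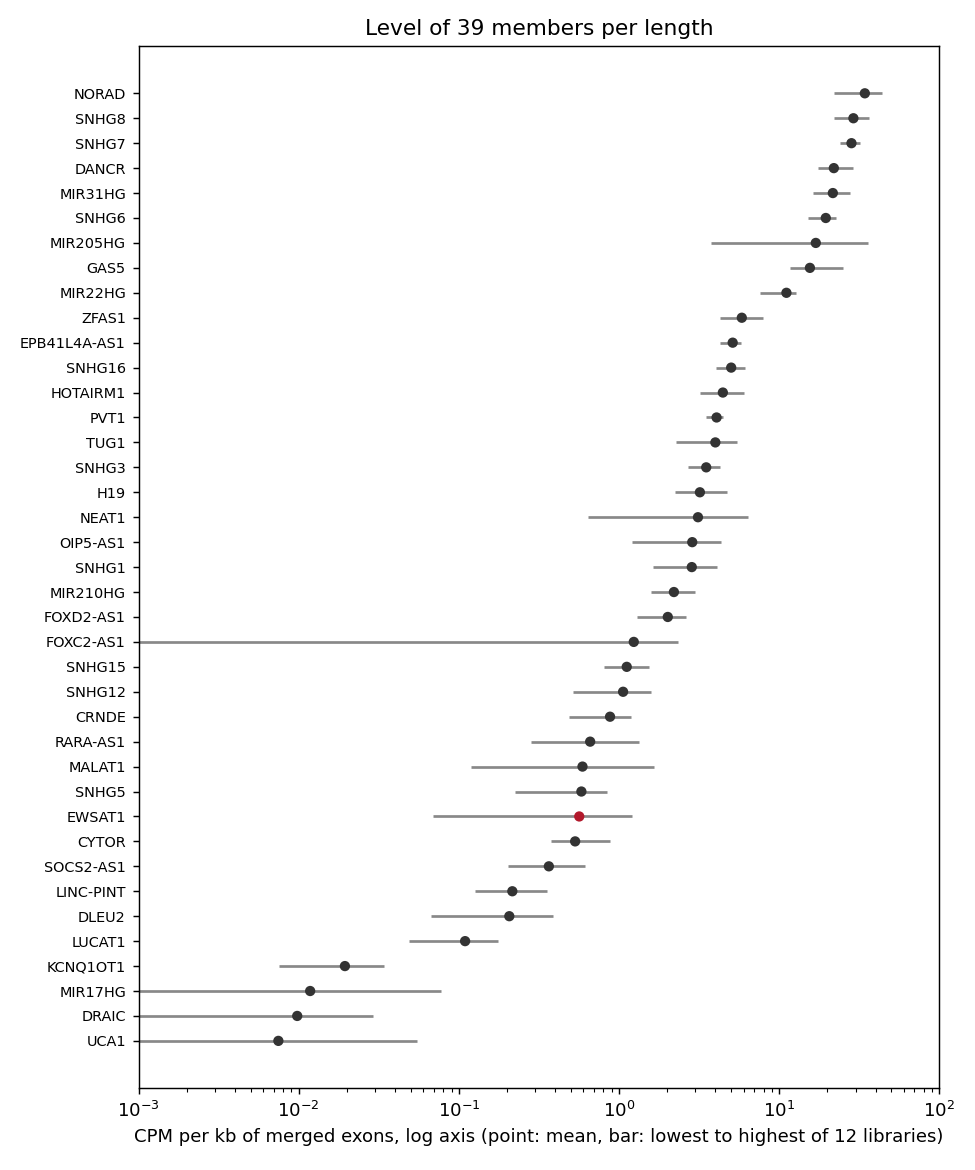
Mean level of the 39 members with any count, in CPM per kb of merged exons on a log axis, with bars from the lowest to the highest of 12 libraries; a bar that reaches the left edge includes a library at 0. EWSAT1, in red, stands at place 30, and MIR205HG, NEAT1 and MALAT1 have long bars.

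EWSAT1, Ewing sarcoma associated transcript 1, is a noncoding RNA known as a target of the EWS-FLI1 fusion factor in Ewing sarcoma. Its gene (ENSG00000212766) lies on the plus strand of chromosome 15 at 69072926 to 69095820 in GENCODE 29 (GRCh38) and has 7 merged exon blocks of 3576 bases. EWSAT1 was higher in every library of the deleted groups than in any intact library. It had 3.33, 4.31 and 2.95 CPM in deleted PRL cells, 4.02, 3.89 and 3.15 CPM in deleted untreated cells, 0.453, 0.418 and 0.414 CPM in intact PRL cells, and 0.672, 0.248 and 0.382 CPM in intact untreated cells. The counts behind these values were 121 to 184 per library in the deleted groups and 9 to 29 in the intact groups. Deleted libraries thus lay between 2.95 and 4.31 CPM and intact libraries between 0.248 and 0.672 CPM, with no overlap.

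The mean was 3.61 ± 0.541 CPM in deleted and 0.431 ± 0.138 CPM in intact libraries (SD, n = 6 each), a ratio of 8.36. The log2 fold change for the deletion was 3.05 ± 0.25 (SE) averaged over both treatments, 3.07 ± 0.35 in untreated cells and 3.03 ± 0.35 with PRL. In each of these 3 comparisons EWSAT1 was the single gene called of 17677, or 0.00566%, which is how it was chosen. Of 2498 annotated long noncoding genes tested it was 0.04%. In this bulk measurement, more cells with the transcript and more transcript per cell cannot be told apart. Without titles 1 to 4 its averaged log2 fold change was 3.28, and with a term for the title runs it was 3.05. The call in a single treatment was lost in several leave-outs of 1 library, while the averaged one held in all 12.

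No PRL effect on EWSAT1 was detectable, in a comparison that the choice of this gene did not use. It averaged 1.98 CPM in PRL libraries (0.414 to 4.31) and 2.06 CPM in untreated libraries (0.248 to 4.02), each span covering both receptor pairs. Its averaged log2 fold change for PRL was -0.04 ± 0.24 (SE; edgeR quasi-likelihood test, adjusted p = 0.986), -0.06 ± 0.31 in deleted cells and -0.02 ± 0.36 in intact cells. The difference between its PRL effects with deleted and with intact I-tail was -0.04 ± 0.48 on the log2 scale. Without titles 1 to 4 the averaged PRL value was 0.21.

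**Figure D2:**
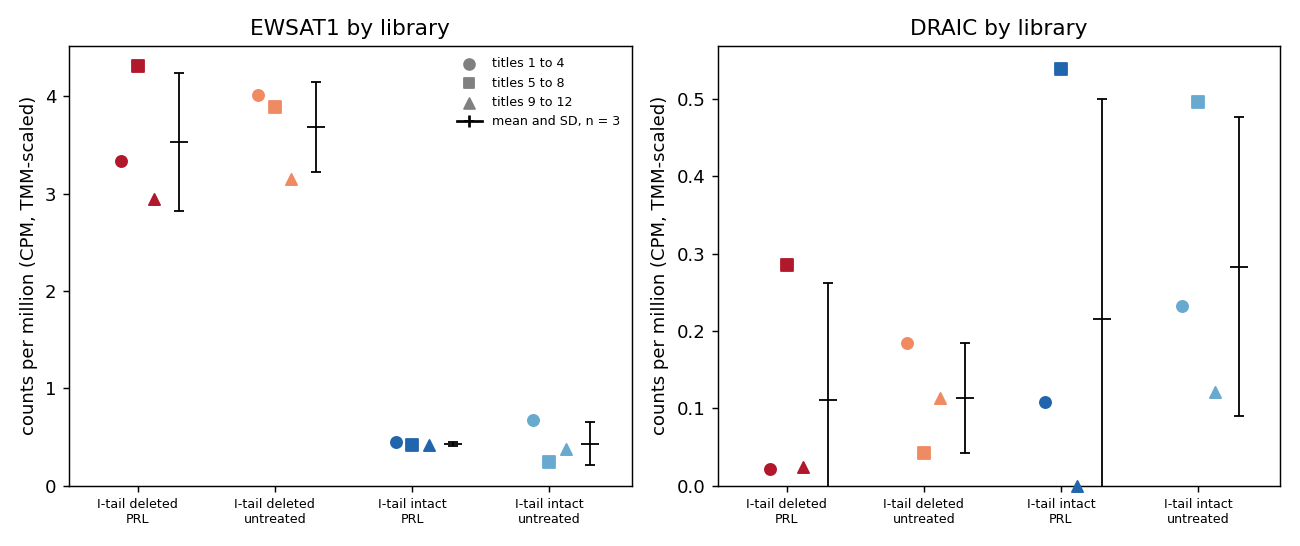
CPM of EWSAT1 and DRAIC in each library by group, with marker shapes for the runs of title numbers and black bars for mean and SD (n = 3, cut at 0). All 6 deleted libraries lie above all 6 intact libraries for EWSAT1, and the groups overlap for DRAIC.

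The sequence around the RefSeq start of EWSAT1 is shown, as the region that a promoter at this start would occupy. RefSeq places this start inside the GENCODE gene, which begins at 69072926, so the EWSAT1 window is not at the GENCODE start. It runs from 250 bases before the RefSeq start to 50 bases after it (GRCh38.p14, chr15:69080600-69080899, plus strand), with the bases from the start onwards in capitals. The GENCODE start of another noncoding gene on the same strand, ENSG00000259222, lies inside this window at 69080879. The neighbouring DRAIC window is set beside it (chr15:69561470-69561769, plus strand), with the letters TTCNNNGAA, the core of STAT binding sites, in capitals where they occur. This RefSeq start also lies inside the GENCODE gene, which begins at 69463026, so the DRAIC window is not at the GENCODE start either. The GENCODE starts of EWSAT1 and DRAIC were not searched for these letters.
EWSAT1: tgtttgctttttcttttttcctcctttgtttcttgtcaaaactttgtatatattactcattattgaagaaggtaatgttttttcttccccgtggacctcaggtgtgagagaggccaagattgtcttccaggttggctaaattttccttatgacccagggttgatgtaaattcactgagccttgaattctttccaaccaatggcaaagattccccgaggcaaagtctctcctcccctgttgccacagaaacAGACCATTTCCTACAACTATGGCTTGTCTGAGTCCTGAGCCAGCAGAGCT
DRAIC: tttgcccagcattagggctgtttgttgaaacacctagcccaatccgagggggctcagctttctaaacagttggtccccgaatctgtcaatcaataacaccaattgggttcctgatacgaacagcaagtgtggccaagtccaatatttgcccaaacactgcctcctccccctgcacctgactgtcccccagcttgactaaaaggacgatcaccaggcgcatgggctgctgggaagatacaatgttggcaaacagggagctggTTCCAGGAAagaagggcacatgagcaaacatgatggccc
The letters TTCNNNGAA, which read the same on both strands, did not occur in the EWSAT1 window and occurred once in that of DRAIC. Windows were in the RefSeq table for 31 of the 40 members, with 38 windows in all; 4 of these 38 windows had the letters (in CYTOR, DANCR, DRAIC and SNHG3), against 7.66% of all 35116 windows.

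GENCODE 29 places the starts of 26 genes within 500 kb of the EWSAT1 start, of which 25 were in the table and 11 could be tested. Their log2 fold changes for the deletion ran from -1.12 to 0.68, and 0 of the 11 were called, against 0.00566% of all genes, so the count says nothing particular of this region. GLCE, a heparan sulfate enzyme gene and the nearest tested neighbour downstream, averaged 8.07 ± 2.68 CPM in deleted and 8.24 ± 3.68 CPM in intact libraries (SD, n = 6 each). NOX5, an NADPH oxidase gene upstream, averaged 0.433 ± 0.143 CPM in deleted and 0.643 ± 0.223 CPM in intact libraries. ENSG00000259222, a noncoding gene on the same strand that shares 434 exonic bases with EWSAT1, had 0 counts in every library. How reads in these shared bases were counted is not known here, so the 0 does not show that this gene is silent.

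DRAIC, a noncoding RNA known from prostate cancer cells, has its GENCODE start 390100 bases downstream of that of EWSAT1. It was near the limit of detection, with 0.0222, 0.286 and 0.0243 CPM in deleted PRL cells, 0.185, 0.0422 and 0.113 CPM in deleted untreated cells, 0.108, 0.538 and 0 CPM in intact PRL cells, and 0.232, 0.496 and 0.122 CPM in intact untreated cells. The whole series held 85 DRAIC counts. Its log2 fold change for the deletion was -1.12 ± 0.88 (SE), and it came to -0.22 without replicate 2 of intact PRL and to -2.18 without replicate 2 of deleted PRL, so single libraries set its size; with limma-voom it was 0.97.

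Of 12949 genes with a mean of at least 1 CPM, the 5 whose levels correlated most with EWSAT1 over the 12 libraries were GIMAP6 (Pearson's r = 0.92), CLP1 (0.87), RPS25 (0.86), EXOSC10 (0.86) and ANXA2 (0.84). These values describe libraries that share 2 levels of EWSAT1, so any gene that differs between the receptor pairs ranks high. GIMAP6, a GTPase gene of the immune-associated family, averaged 1.72 ± 0.448 CPM in deleted and 0.282 ± 0.167 CPM in intact libraries (SD, n = 6 each), with no overlap. It was second in the order of p for the deletion and was not called (log2 fold change 2.69 ± 0.38 SE; edgeR, adjusted p = 0.0562).

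Among the other 36 tested members, none was called for the deletion, against 0.00566% of all genes, and none separated the deleted from the intact libraries. Of all 17677 genes, 0.13% were higher in every deleted library and 0.0566% lower. Log2 fold changes of these 36 ran from -1.12 to 1.10, with 34 of 36 within 0.5 of 0 and a median of 0.08, beside 0.03 for all genes tested. The highest and the lowest value of the 36, those of MIR205HG and DRAIC, were both well short of EWSAT1.

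**Figure D3:**
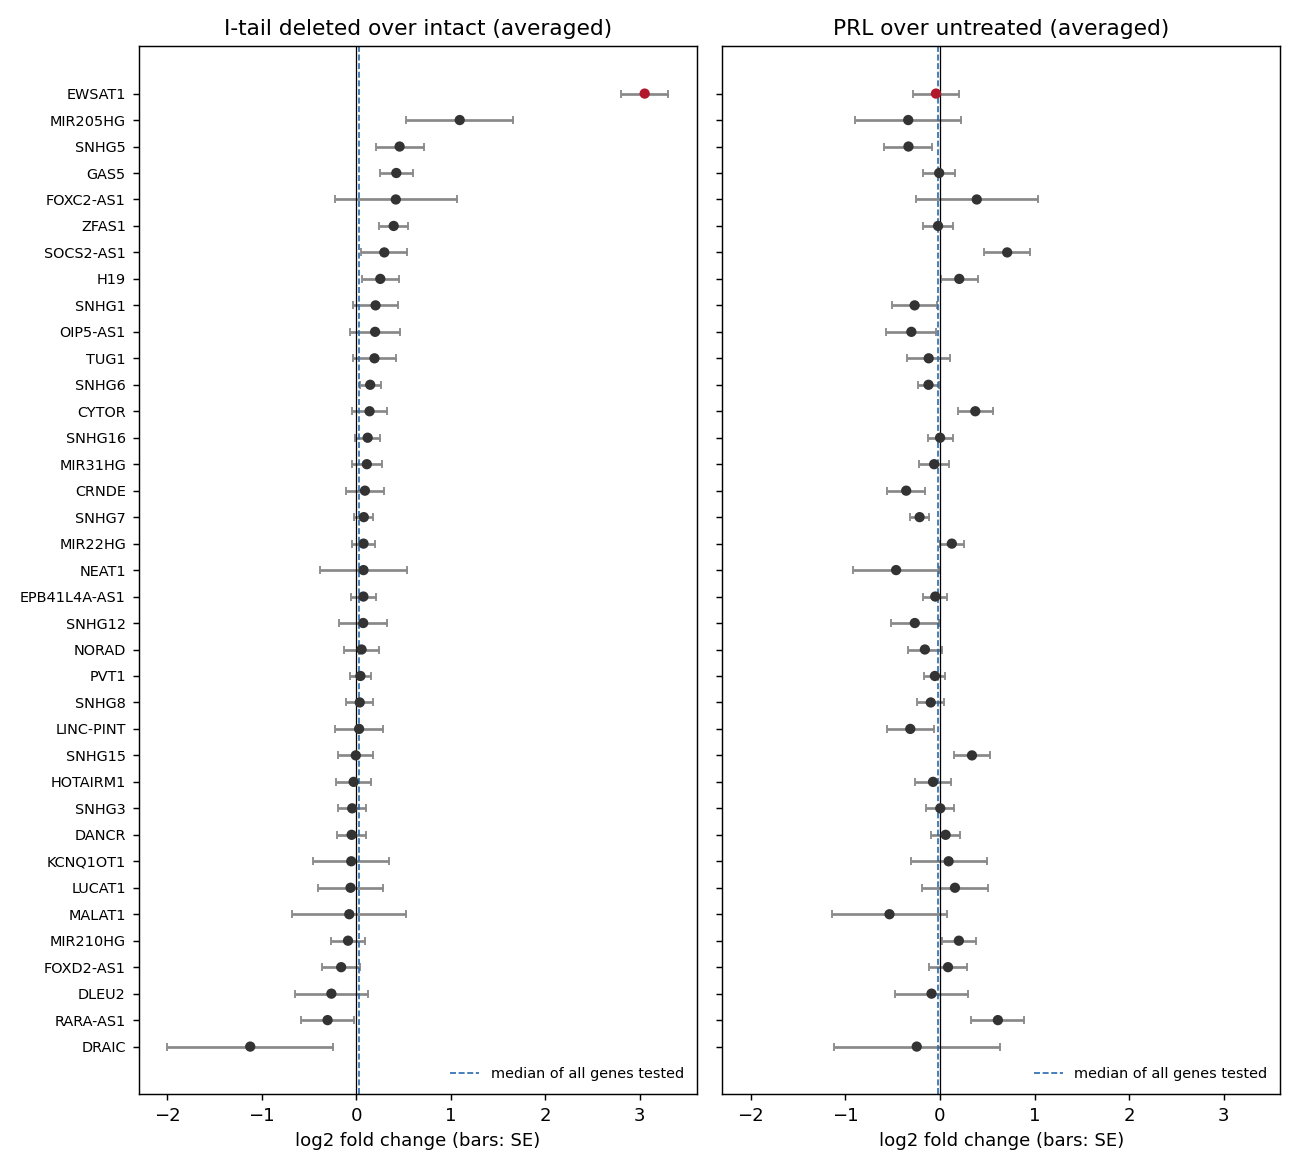
Log2 fold change with SE of the 37 tested members for the averaged I-tail deletion (left) and the averaged PRL effect (right), with the median of all tested genes as a dashed line. EWSAT1, in red, is at 3.05 for the deletion and at -0.04 for PRL, and all other members lie between -1.12 and 1.10 on both sides.

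The snoRNA host genes carry small nucleolar RNAs, guides for modifying ribosomal RNA, and their spliced remainders are mostly short-lived. Many begin with a run of pyrimidines, the 5′ terminal oligopyrimidine tract that ties translation to growth signals. GENCODE 29 placed a snoRNA gene inside 13 members, among them DANCR and MIR31HG. GAS5, named as a snoRNA host above, was not found by this search of gene types on the same strand. That does not show that GAS5 carries no snoRNA. A tract was taken as a C followed by at least 4 further C or T bases, beginning within 5 bases of the start on the transcript's strand. Of the 11 of the 13 with a RefSeq window, 8 had one, DANCR and MIR31HG among them, against 21.1% of all windows. GAS5 was not among the members with such a tract. The search covered only the first bases around the RefSeq start, so it does not show that GAS5 transcripts lack one. The 12 hosts counted in the next paragraph include GAS5 and leave out DANCR and MIR31HG, so the sets differ. The starts of 5 are shown from 15 bases before to 25 bases into the transcript (GRCh38.p14), with the tract in capitals: ZFAS1 (chr20:49278627-49278666, plus strand) and SNHG5 (chr6:85678709-85678748, minus strand), which are described next, SNHG7 (chr9:136728160-136728199, minus strand) and SNHG8 (chr4:118278747-118278786, plus strand), the highest in level, and SNHG1 (chr11:62855861-62855900, minus strand), which had no such run in the searched window.
ZFAS1: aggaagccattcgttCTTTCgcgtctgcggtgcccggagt
SNHG5: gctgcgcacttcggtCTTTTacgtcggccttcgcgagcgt
SNHG7: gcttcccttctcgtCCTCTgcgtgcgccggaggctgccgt
SNHG8: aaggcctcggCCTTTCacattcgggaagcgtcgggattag
SNHG1: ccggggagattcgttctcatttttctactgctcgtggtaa

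Of the 12 hosts formed by 9 SNHG genes, GAS5, ZFAS1 and EPB41L4A-AS1, 10 had a deletion log2 fold change above 0, and none was called. Their range was -0.04 to 0.46 and their median 0.10, beside 0.03 for all genes tested. Of all tested members, 25 of 37 were above 0, and the share of all genes above 0 was not counted. GAS5, a noncoding RNA that accumulates in growth-arrested cells, had 60.9, 91.4 and 50.3 CPM in deleted PRL cells, 50.5, 84.2 and 51.7 CPM in deleted untreated cells, 46.7, 48.7 and 42.6 CPM in intact PRL cells, and 49.7, 57.6 and 44.5 CPM in intact untreated cells. The deleted libraries of titles 5 to 8 stood above all others, and the rest of the 2 receptor pairs overlapped. Its log2 fold change was 0.42 ± 0.17 (SE). ZFAS1, antisense to the start of ZNFX1, had 14.8, 17.8 and 11.4 CPM in deleted PRL cells, 15.9, 17.4 and 12.1 CPM in deleted untreated cells, 11.96, 12.3 and 9.82 CPM in intact PRL cells, and 12.98, 11.3 and 9.60 CPM in intact untreated cells. Its log2 fold change was 0.40 ± 0.15 (SE), and the groups overlapped through replicate 3 of the deleted groups. SNHG5 had 1.53, 2.20 and 1.29 CPM in deleted PRL cells, 2.38, 2.28 and 1.70 CPM in deleted untreated cells, 1.77, 0.628 and 1.24 CPM in intact PRL cells, and 1.53, 1.46 and 1.60 CPM in intact untreated cells, a log2 fold change of 0.46 ± 0.25 (SE).

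Within the title runs each deleted library can be set beside the intact library of the same treatment. GAS5, ZFAS1, MIR205HG and H19 were higher in the deleted library in 6 of 6 such pairs, as EWSAT1 was. With EWSAT1 this made 5 of 37 members, against 4.04% of all genes. EWSAT1 had been picked for its difference in these libraries, so the count that includes it is description only. H19, an imprinted growth-related RNA that carries miR-675, averaged 10.1 ± 2.42 CPM in deleted and 8.44 ± 2.09 CPM in intact libraries (SD, n = 6 each). The other snoRNA hosts SNHG1, SNHG3, SNHG6, SNHG8, SNHG12, SNHG15, SNHG16 and EPB41L4A-AS1 had log2 fold changes between -0.04 and 0.21. SNHG1 averaged 11.5 ± 3.08 CPM in deleted and 9.89 ± 3.33 CPM in intact libraries, SNHG6 25.6 ± 2.24 CPM in deleted and 23.2 ± 2.41 CPM in intact libraries, and SNHG8 27.2 ± 4.27 CPM in deleted and 26.6 ± 4.21 CPM in intact libraries. SNHG3 averaged 14.1 ± 2.36 CPM in deleted and 14.5 ± 2.10 CPM in intact libraries, SNHG12 4.65 ± 1.41 CPM in deleted and 4.40 ± 1.35 CPM in intact libraries, and EPB41L4A-AS1 17.6 ± 1.42 CPM in deleted and 16.7 ± 2.23 CPM in intact libraries. Each of these hosts overlapped between the receptor pairs.

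The miRNA host genes are the primary transcripts from which miRNAs are cut, and the miRNAs themselves were not measured in these polyA libraries. The mature forms of 4 hosts are shown with the seed, bases 2 to 8, in capitals (RefSeq, GRCh38.p14): miR-205-5p from MIR205HG (chr1:209432166-209432187, plus strand), miR-31-5p from MIR31HG (chr9:21512158-21512178, minus strand), miR-22-3p from MIR22HG (chr17:1713914-1713935, minus strand) and miR-210-3p from MIR210HG (chr11:568112-568133, minus strand). The 4 seeds differ from each other.
miR-205-5p: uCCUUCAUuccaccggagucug
miR-31-5p: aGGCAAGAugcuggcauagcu
miR-22-3p: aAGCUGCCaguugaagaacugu
miR-210-3p: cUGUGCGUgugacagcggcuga
miR-205 is known as a marker of basal and stem-like mammary epithelium, and miR-210 as a hypoxia-induced miRNA.

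MIR205HG had the widest spread among libraries of these hosts. It had 17.2, 113 and 89.0 CPM in deleted PRL cells, 18.5, 123 and 127 CPM in deleted untreated cells, 13.2, 22.6 and 63.6 CPM in intact PRL cells, and 13.9, 50.4 and 64.9 CPM in intact untreated cells. All libraries of titles 1 to 4 were below all others, and within each run, titles 1 to 4 included, the deleted libraries were the higher ones. Its mean was 81.2 ± 50.8 CPM in deleted and 38.1 ± 24.4 CPM in intact libraries (SD, n = 6 each), with a log2 fold change of 1.10 ± 0.56 (SE). The value was 1.17 without titles 1 to 4, 0.96 with a term for the title runs and 0.61 with limma-voom; with no count filter MIR205HG was called for the deletion.

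The other hosts varied less. MIR31HG averaged 16.8 ± 3.51 CPM in deleted and 15.5 ± 1.85 CPM in intact libraries, MIR22HG 34.0 ± 2.53 CPM in deleted and 32.3 ± 5.19 CPM in intact libraries, and MIR210HG 4.95 ± 0.939 CPM in deleted and 5.27 ± 1.01 CPM in intact libraries (SD, n = 6 each). DLEU2, which hosts miR-15a and miR-16-1, averaged 0.962 ± 0.436 CPM in deleted and 1.15 ± 0.531 CPM in intact libraries. All 4 overlapped between the receptor pairs.

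The nuclear RNAs MALAT1, a component of splicing speckles, and NEAT1, the scaffold of paraspeckles, varied with the library more than with the group. MALAT1 and the long NEAT1 form lack a normal polyA tail, and polyA selection recovers them in part. NEAT1 had 83.6, 58.7 and 30.3 CPM in deleted PRL cells, 113, 97.6 and 57.4 CPM in deleted untreated cells, 113, 14.6 and 56.5 CPM in intact PRL cells, and 145, 30.0 and 50.6 CPM in intact untreated cells. In each of the 4 groups the library of titles 1 to 4 was the highest, and the receptor pairs overlapped. The log2 fold change of NEAT1 for the deletion was 0.08 ± 0.46 (SE) and that of MALAT1 was -0.07 ± 0.60 (SE). Without titles 1 to 4 these values were 0.63 and 0.94, so titles 1 to 4 moved both values and, for MALAT1, the sign.

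NORAD had 219, 163 and 133 CPM in deleted PRL cells, 235, 185 and 188 CPM in deleted untreated cells, 227, 117 and 179 CPM in intact PRL cells, and 227, 149 and 176 CPM in intact untreated cells. Titles 1 to 4 were the highest in every group, and the log2 fold change for the deletion was 0.06 ± 0.18 (SE). TUG1 averaged 43.3 ± 9.72 CPM in deleted and 37.9 ± 12.9 CPM in intact libraries, and OIP5-AS1, a cytoplasmic RNA that binds HuR, 38.9 ± 10.2 CPM in deleted and 33.8 ± 14.2 CPM in intact libraries (SD, n = 6 each). KCNQ1OT1, the imprinting RNA of the KCNQ1 domain, averaged 1.75 ± 0.612 CPM in deleted and 1.81 ± 1.09 CPM in intact libraries.

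The remaining members also overlapped between the receptor pairs, with log2 fold changes from -0.16 to 0.14. CYTOR averaged 9.78 ± 1.83 CPM in deleted and 9.06 ± 3.26 CPM in intact libraries, and its near-identical copy MIR4435-2HG makes its count uncertain. PVT1, the neighbour of MYC, averaged 22.7 ± 0.974 CPM in deleted and 21.995 ± 2.26 CPM in intact libraries, with the lowest coefficient of variation over the 12 libraries of the 39 members with a count, 7.62%. DANCR averaged 49.4 ± 9.97 CPM in deleted and 51.0 ± 8.13 CPM in intact libraries, and HOTAIRM1, of the HOXA cluster, 6.60 ± 1.07 CPM in deleted and 6.72 ± 1.57 CPM in intact libraries. CRNDE averaged 5.31 ± 1.14 CPM in deleted and 4.97 ± 1.37 CPM in intact libraries, and FOXD2-AS1 4.78 ± 1.24 CPM in deleted and 5.34 ± 0.831 CPM in intact libraries. LINC-PINT averaged 1.97 ± 0.379 CPM in deleted and 1.93 ± 0.728 CPM in intact libraries, and LUCAT1, a stress-induced RNA, 1.77 ± 0.923 CPM in deleted and 1.85 ± 0.556 CPM in intact libraries (SD, n = 6 each throughout).

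PRL raised SOCS2, RARA and FOXC2, and the question of whether their antisense partners stood out with them is described here for genes chosen on that ground. SOCS2 is a feedback inhibitor of cytokine receptors, RARA a retinoic acid receptor and FOXC2 a forkhead transcription factor. SOCS2 had 16.7, 14.3 and 16.6 CPM in deleted PRL cells and 5.38, 3.36 and 5.88 CPM in deleted untreated cells. In intact cells it had 17.7, 11.2 and 12.8 CPM with PRL and 4.61, 2.65 and 4.32 CPM untreated. For PRL averaged over both receptor pairs, SOCS2 changed by a log2 fold change of 1.78 ± 0.20 (SE), RARA by 1.30 ± 0.20 and FOXC2 by 1.08 ± 0.15, all without overlap between 6 PRL and 6 untreated libraries and all called in edgeR (adjusted p = 0.00213, 0.0203 and 0.0108).

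RARA had 92.6, 145 and 128 CPM in deleted PRL cells and 39.3, 55.1 and 50.1 CPM in deleted untreated cells. In intact cells it had 101, 201 and 118 CPM with PRL and 42.7, 71.8 and 61.0 CPM untreated. FOXC2 had 48.8, 32.1 and 55.6 CPM in deleted PRL cells and 22.8, 20.5 and 22.3 CPM in deleted untreated cells. In intact cells it had 50.7, 58.7 and 47.8 CPM with PRL and 25.4, 19.03 and 29.2 CPM untreated. Every PRL library was above every untreated one for both genes.

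The antisense partners were far lower and less separated. SOCS2-AS1 had 1.76, 2.29 and 1.29 CPM in deleted PRL cells, 0.969, 1.33 and 1.45 CPM in deleted untreated cells, 2.35, 1.46 and 1.17 CPM in intact PRL cells, and 0.927, 0.772 and 0.937 CPM in intact untreated cells. PRL and untreated libraries overlapped in deleted cells and did not in intact cells, and the averaged log2 fold change was 0.71 ± 0.24 (SE). The share of all genes that separate within 1 receptor pair, with 3 libraries on each side, was not counted. RARA-AS1 had 1.16, 1.29 and 1.34 CPM in deleted PRL cells, 0.508, 1.31 and 0.726 CPM in deleted untreated cells, 1.30, 2.39 and 1.15 CPM in intact PRL cells, and 0.858, 1.02 and 1.16 CPM in intact untreated cells. Its averaged log2 fold change was 0.61 ± 0.28 (SE), with overlap in both receptor pairs.

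FOXC2-AS1 had 0.622, 0.743 and 0 CPM in deleted PRL cells, 0.646, 0.486 and 0.182 CPM in deleted untreated cells, 0.302, 0.628 and 0.366 CPM in intact PRL cells, and 0.232, 0.165 and 0.365 CPM in intact untreated cells. The groups overlapped, and the averaged log2 fold change was 0.39 ± 0.64 (SE). The annotated exons of these antisense genes overlap those of SOCS2, RARA and FOXC2 by 277, 556 and 145 bases, and no source used here states whether strand was used in counting. Reads of a gene and of its antisense partner in those bases therefore cannot be told apart. A partner with annotated exons on the opposite strand was in the table for 24 of the 40 members. For the deletion, SOCS2-AS1 had a log2 fold change of 0.30 ± 0.24 (SE), RARA-AS1 one of -0.30 ± 0.28 and FOXC2-AS1 one of 0.42 ± 0.64, which was -0.31 with limma-voom.

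**Figure D4:**
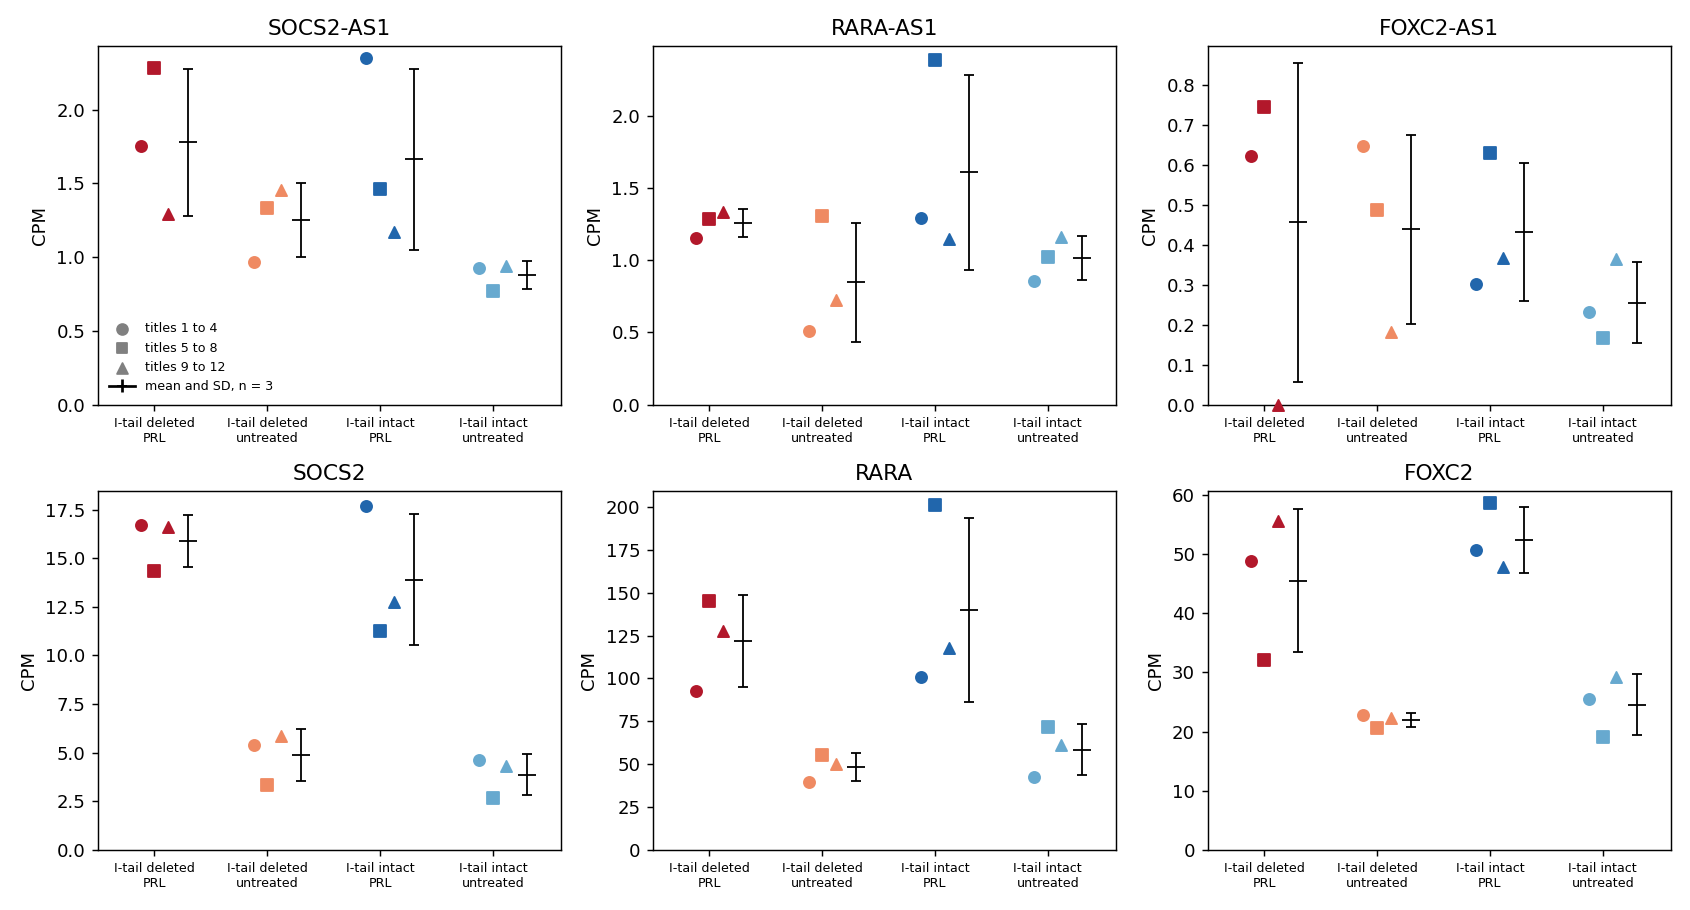
CPM by library of SOCS2-AS1, RARA-AS1 and FOXC2-AS1 (top) and of SOCS2, RARA and FOXC2 (bottom), by group, with marker shapes for the runs of title numbers and black bars for mean and SD (n = 3). The coding genes separate PRL from untreated libraries, and the antisense genes overlap in at least 1 receptor pair.

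None of the 37 tested members was called for PRL on average, in deleted or in intact cells, while 21 of all genes were called on average, or 0.119%, and 3 in each receptor pair, or 0.017% with deleted and 0.017% with intact I-tail. At an unadjusted p under 0.05, 673 of 17677 genes passed for the averaged effect. The only members that passed were SOCS2-AS1 and RARA-AS1, 2 of 37. Both had been picked beside PRL-raised genes in these libraries, so their passing is description and not a test. DESeq2 and limma-voom also called 0 members. Of 2498 annotated long noncoding genes tested, 0 were called for PRL and 1, EWSAT1, for the deletion. No member separated PRL from untreated libraries, against 0.441% of all genes with PRL higher and 0.238% with PRL lower. The members' log2 fold changes for PRL ran from -0.53 to 0.71 with a median of -0.05, beside -0.02 for all genes.

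Of the members not picked beside a PRL-raised gene, SNHG7 and CYTOR had the smallest p for PRL. SNHG7 had 115, 126 and 121 CPM in deleted PRL cells, 139, 121 and 135 CPM in deleted untreated cells, 110, 107 and 105 CPM in intact PRL cells, and 136, 125 and 136 CPM in intact untreated cells. Intact PRL libraries were all below intact untreated ones, and the deleted groups overlapped. How many of all genes separate in this way within 1 receptor pair was not counted. The averaged log2 fold change of SNHG7 was -0.22 ± 0.10 SE (edgeR, adjusted p = 0.98). CYTOR had 9.002, 8.97 and 12.7 CPM in deleted PRL cells, 7.34, 9.91 and 10.8 CPM in deleted untreated cells, 8.22, 15.4 and 9.24 CPM in intact PRL cells, and 6.96, 6.67 and 7.83 CPM in intact untreated cells. Its log2 fold change was 0.37 ± 0.19 (SE; edgeR, adjusted p = 0.98), and replicate 2 of intact PRL was the highest library. MIR4435-2HG had a log2 fold change of 0.24 ± 0.17 (SE).

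SNHG15, a short-lived snoRNA host transcript, was higher in the PRL library in 6 of 6 pairs within the title runs, counted with no tolerance, 1 of 37 members against 8.37% of all genes. In 1 of the 6 pairs, intact cells of titles 5 to 8, the levels were equal to 3 digits (158 counts with PRL and 171 counts untreated). Its levels were 3.80, 5.06 and 5.65 CPM in deleted PRL cells, 3.07, 3.36 and 3.68 CPM in deleted untreated cells, 3.17, 4.72 and 4.92 CPM in intact PRL cells, and 2.92, 4.72 and 3.87 CPM in intact untreated cells. The log2 fold change was 0.34 ± 0.19 (SE; edgeR, adjusted p = 0.98). Of the 12 snoRNA hosts, 3 had a PRL value above 0, with a median of -0.07 and none called. Of all tested members, 14 of 37 were above 0 for PRL, and the share of all genes was not counted. All 5 of MALAT1, NEAT1, NORAD, TUG1 and OIP5-AS1 had a value below 0 for PRL, from -0.53 to -0.12, none called. With library size alone as the scaling, the median of all genes for PRL was -0.12 in place of -0.02. For the interaction of PRL and the deletion 0 of 37 members and 0 of 17677 genes were called in edgeR, and 0 members and 127 genes had an unadjusted p under 0.05; DESeq2 and limma-voom called 0 genes as well.

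The runs of title numbers separated more members than PRL or the deletion did. MALAT1, SNHG1, HOTAIRM1, TUG1, NORAD, OIP5-AS1, LINC-PINT, KCNQ1OT1, LUCAT1 and DLEU2 were higher in all 4 libraries of titles 1 to 4 than in any other library, 10 of 37 against 12.8% of all genes. MIR205HG, MIR31HG and DANCR were lower in all 4, 3 of 37 against 13.6% of all genes. MALAT1 had 6.60 to 14.7 CPM in titles 1 to 4 and 1.05 to 5.56 CPM in the other libraries. The lowest NEAT1 values, 14.6 and 30.0 CPM, were those of the intact libraries of titles 5 to 8, which also had the fewest genes with a count, 19073 in intact PRL and 19905 in intact untreated. The part of library composition in these values was not tested.

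**Figure D5:**
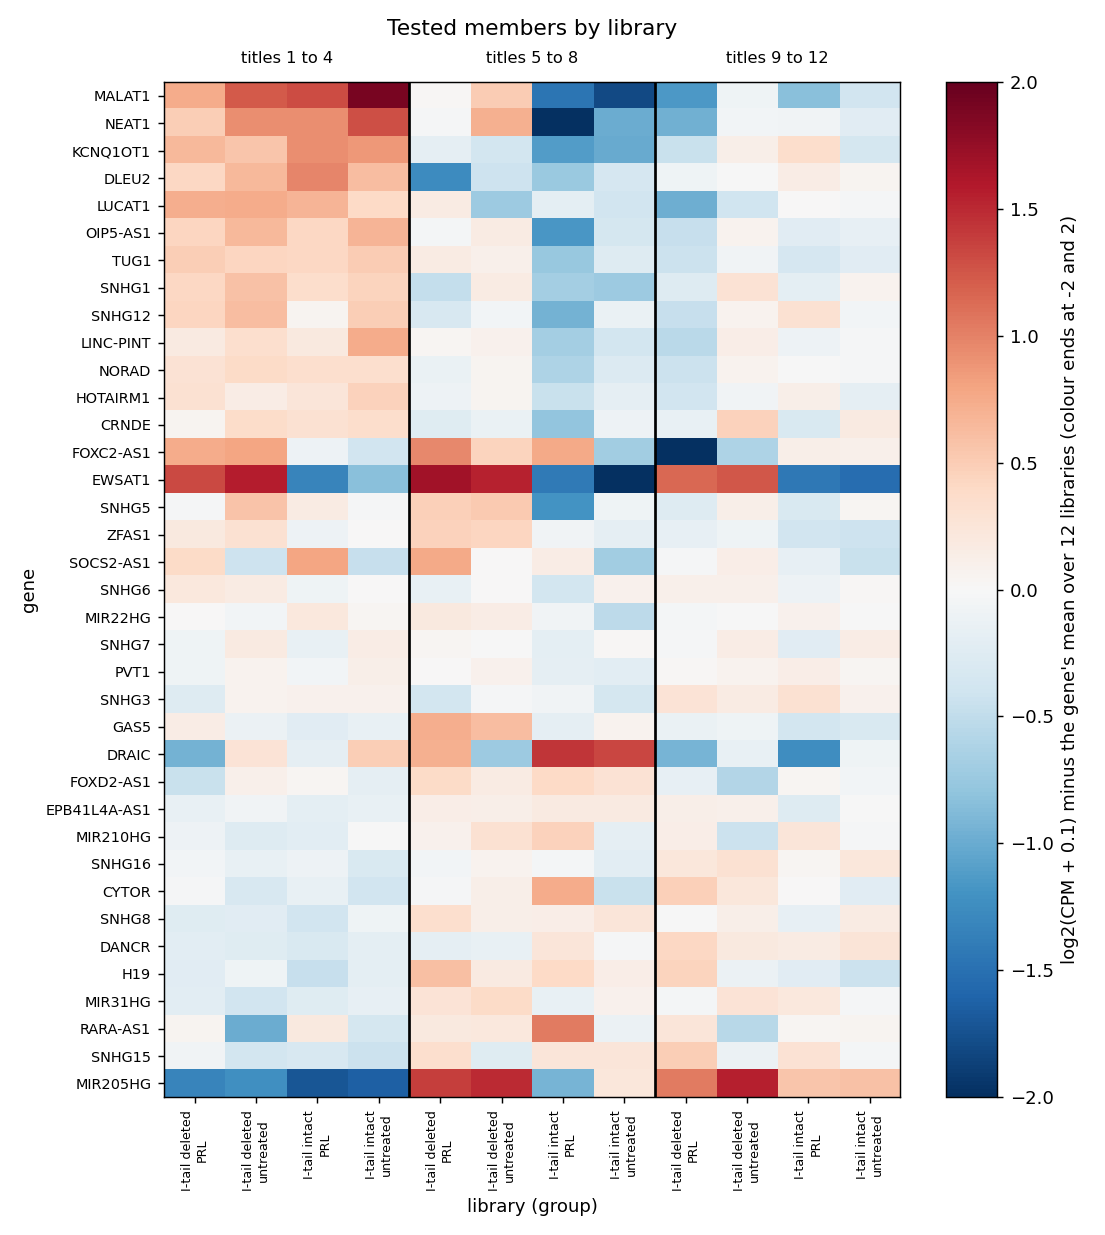
Log2(CPM + 0.1) of each tested member minus its mean over 12 libraries, with libraries in columns by run of title numbers and group, and genes ordered by titles 1 to 4 against the rest. MALAT1 stands high and MIR205HG stands low in titles 1 to 4, while EWSAT1 alternates with the receptor pair in all 3 runs.

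Genes that work with these RNAs were read from lists drawn up around their functions. The share of all genes above 0 was not counted, so counts above 0 in these lists have no background beside them. Among 15 tested further noncoding snoRNA hosts, 0 were called in either comparison. For the deletion 8 of 15 were above 0, with a median log2 fold change of 0.09. For PRL 2 of 15 were above 0, with a median of -0.13. The smallest p for PRL were those of SNHG25 (-1.51 ± 0.74 SE) and SNHG9 (-0.31 ± 0.25 SE). Translation genes with a 5′ terminal oligopyrimidine tract had 19 of 23 members above 0 for the deletion, a median of 0.18 beside 0.03 for all genes, and 0 called. EIF3E (0.18 ± 0.12 SE) and EIF4A2 (-0.36 ± 0.25 SE) had their smallest p for PRL. Factors of nonsense-mediated decay, which removes many snoRNA host transcripts, had medians of 0.02 for the deletion and -0.03 for PRL, with 0 of 15 called. UPF3B (-0.42 ± 0.21 SE) and SMG8 (-0.26 ± 0.14 SE) led these for PRL.

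Paraspeckle and speckle protein genes had 0 of 18 called and medians of 0.09 for the deletion and 0.09 for PRL, with SRRM2 (0.24 ± 0.14 SE) and SRSF2 (0.20 ± 0.15 SE) leading for PRL. Of 5 tested imprinted neighbours 0 were called, PHLDA2 (0.68 ± 0.26 SE) and KCNQ1 (0.56 ± 0.63 SE) had the smallest p for PRL, and the median for the deletion was -0.43. miRNA biogenesis genes had 0 of 13 called, and 12 of 13 above 0 for the deletion with a median of 0.13, beside 0.03 for all genes. PRKRA (-0.21 ± 0.15 SE) and TNRC6B (-0.21 ± 0.19 SE) led these for PRL. Of 20 tested coding neighbours of the members, 3 were called for PRL, SOCS2, RARA and FOXC2, which had been picked for that, against 0.113% of all genes called higher; their medians were 0.05 for the deletion and -0.03 for PRL.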

How the data were processed

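PolyA-selected RNA of 12 MCF10AT libraries was measured. The authors deposited whole-number counts per Ensembl gene; build GRCh38, FastQC, STAR 2.7.9a and featureCounts from Subread are named, per the submitters' processing notes. The sources used here give neither the annotation release nor the strand setting. Groups came from the genotype and treatment labels. Of 62703 entries, 62702 had values.

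Counts were filtered with filterByExpr (17677 genes), scaled by TMM and fitted with 1 mean per group in edgeR 4.0.16 (R 4.3.3; robust quasi-likelihood, 8 residual degrees of freedom). The 7 contrasts were tested with Benjamini-Hochberg adjustment over all tested genes and called at 0.05. SE was taken as the log2 fold change over the root of its F statistic. For the averaged effects, 95% intervals (from 8 degrees of freedom) reached a median of 0.461 to either side of the log2 fold change over the 37 tested members. The quasi-likelihood tests also borrow information on spread between genes and so use more degrees of freedom. These intervals are therefore wider than those tests imply. Replicate libraries differed far beyond sampling noise (chi-square per degree of freedom 57.2 to 240). DESeq2 1.42.0 and limma-voom (limma 3.58.1) served as alternatives. The method was tested on simulated data. Coordinates came from GENCODE 29 and sequences from RefSeq (GRCh38.p14).

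The members, gene lists and tests were chosen with earlier results of these data known. Values per library are given for EWSAT1, DRAIC, the antisense pairs, the 4 members with the smallest p for PRL, the 4 others with the smallest p for the deletion and the 3 with the highest CPM; SNHG15, MALAT1 and MIR4435-2HG were named after their values were seen. A list of genes that work with NORAD is not reported here.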

Additional observations from a re-analysis of the deposited data

How the results depend on the processing

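EWSAT1 was called for the averaged deletion effect in all 10 alternative settings and all 12 leave-outs of 1 library, with a log2 fold change of 3.03 to 3.28 in the settings and 2.90 to 3.27 in the leave-outs. Its direction held in both single-treatment comparisons too, but its call there was lost (0 genes and 0 members) with library size alone, with the compared groups only and without titles 1 to 4, the last chosen after seeing the data, and in some leave-outs (0 to 1 genes and 0 to 1 members): in untreated cells without replicates 1 or 2 of deleted untreated or replicates 2 or 3 of intact untreated, and with PRL without replicates 1 or 2 of deleted PRL or any 1 replicate of intact PRL. Fewer libraries entered these fits, except with library size alone. The cause of the lost calls was not tested in any of them.

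Genes called for the averaged deletion effect, 1 in the main analysis, numbered 33 with no count filter (2 members, MIR205HG beside EWSAT1), 11 with a term for the title runs, 10 with DESeq2, 8 with limma-voom, and 1 to 2 in the leave-outs. In untreated cells they numbered 6 with no filter (2 members), 4 with DESeq2 and 5 with limma-voom, and with PRL 4 with no filter (2 members), 2 with DESeq2 and 2 with limma-voom.

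Genes called for PRL, 21 on average and 3 in each receptor pair, changed as follows. On average there were 124 with no filter, 198 with the title-run term, 86 with DESeq2, 116 with limma-voom, 37 without titles 1 to 4 and 11 to 27 in the leave-outs, lowest without replicate 2 (11) and replicate 1 (12) of deleted untreated. In deleted cells there were 33, 57, 21 and 21 with the first 4 of these settings, 1 with library size alone, 11 with the compared groups only and 1 to 5 in the leave-outs. In intact cells there were 46, 62, 21 and 25, then 1 with library size alone, 1 with the compared groups only and 1 to 4 in the leave-outs. Members called for PRL and for the interaction stayed at 0 in every setting and leave-out. The labels give no replicate number that pairs libraries, so the title-run term, which acts as a block on the run of titles, was used as an alternative only. Members below about 1 CPM, such as DRAIC and FOXC2-AS1, were limited by counts of under 30 per library.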
